A study of Mus musculus with 2 samples.

Results

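The genes described here are 9 retinoid genes, taken by their symbols from a deposited table of 13620 distinct genes, and all 9 were listed. They encode a retinol carrier and its receptor (Rbp4, Stra6), cytosolic retinoic acid binding proteins (Crabp1, Crabp2), a retinoic acid synthesis enzyme and a clearance enzyme (Aldh1a1, Cyp26a1), and the retinoic acid receptors (Rara, Rarb, Rarg). The cells were mouse embryonic stem (ES) cells, C57BL/6J in strain, and the polyadenylated RNA of Fbxl10 T/T cells and of WT cells was made into 1 library each. Both were grown in serum with leukemia inhibitory factor on inactivated mouse embryonic fibroblasts, which were depleted by letting them attach before the cells were used. Fbxl10 is an older symbol of Kdm2b, which encodes a CpG island binding subunit of a variant Polycomb complex. The labels say neither what the T allele alters nor whether the T/T cells are 1 clone.

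Retinol travels in blood bound to RBP4 and enters cells through STRA6. Dehydrogenases oxidise it to retinal and then to retinoic acid, CRABP proteins hold retinoic acid in the cytosol, and CYP26 enzymes oxidise it for removal. In the nucleus retinoic acid binds the RAR receptors, which pair with RXR receptors on DNA repeats called retinoic acid response elements. Retinoic acid drives differentiation of cultured ES cells and, in mouse embryonal carcinoma cells, the formation of extraembryonic endoderm.

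The values are normalised CPM, read counts per 1000000 reads of the authors' effective library size. The listed genes held 27109446 reads in Fbxl10 T/T and 21198574 in WT, and 1 read was worth 0.0405 CPM in Fbxl10 T/T and 0.0419 CPM in WT. With 1 library per genotype there was no replicate check and no test between genotypes, so "higher" and "lower" compare these 2 libraries. Intervals are 95% intervals from the recovered reads (exact Poisson for a level, Clopper-Pearson for a fold) and cover counting error only. A gene was counted as higher or lower when the ratio on the log2(CPM + 0.5) scale was at least 2-fold, among the 13512 genes that reached 1 CPM in at least 1 library. That scale understates the ratios of low genes. Kdm2b was at 10.6 CPM in Fbxl10 T/T and 103 CPM in WT.

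The state of the cells differed between the libraries. Over all genes 14.8% were higher and 20.6% lower. Of 9 extraembryonic endoderm markers all 9 were higher in Fbxl10 T/T, with a summed level of 32896 CPM against 3172 CPM in WT. Of 8 ES cell markers 5 were lower and 3 in between, with a summed level of 1812 CPM in Fbxl10 T/T and 6210 CPM in WT. Of 12 listed feeder fibroblast markers 3 were lower and 9 in between, with a summed level of 468 CPM in Fbxl10 T/T and 869 CPM in WT. Lum, of the same list, was not listed, and no listed marker of the 3 types was at 0 in either library. The part of these shifts in the retinoid results was not tested, and in bulk RNA fewer cells of a type cannot be told apart from less RNA per cell.

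The retinoid genes moved in both directions. Stra6, Aldh1a1, Cyp26a1 and Rarb were at least 2-fold higher in the Fbxl10 T/T library, Rarg, Crabp1 and Rbp4 were at least 2-fold lower, and Rara and Crabp2 lay in between. This is 4 of 9 higher beside 14.8% of all genes and 3 of 9 lower beside 20.6% of all genes. The median log2 ratio of the 9 genes was -0.51, beside 0.02 over all genes. Aldh1a1 and Rarb reached 1 CPM in Fbxl10 T/T alone, and Rbp4 in WT alone, so these 3 genes passed the minimum through 1 library each.

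**Figure D1:**
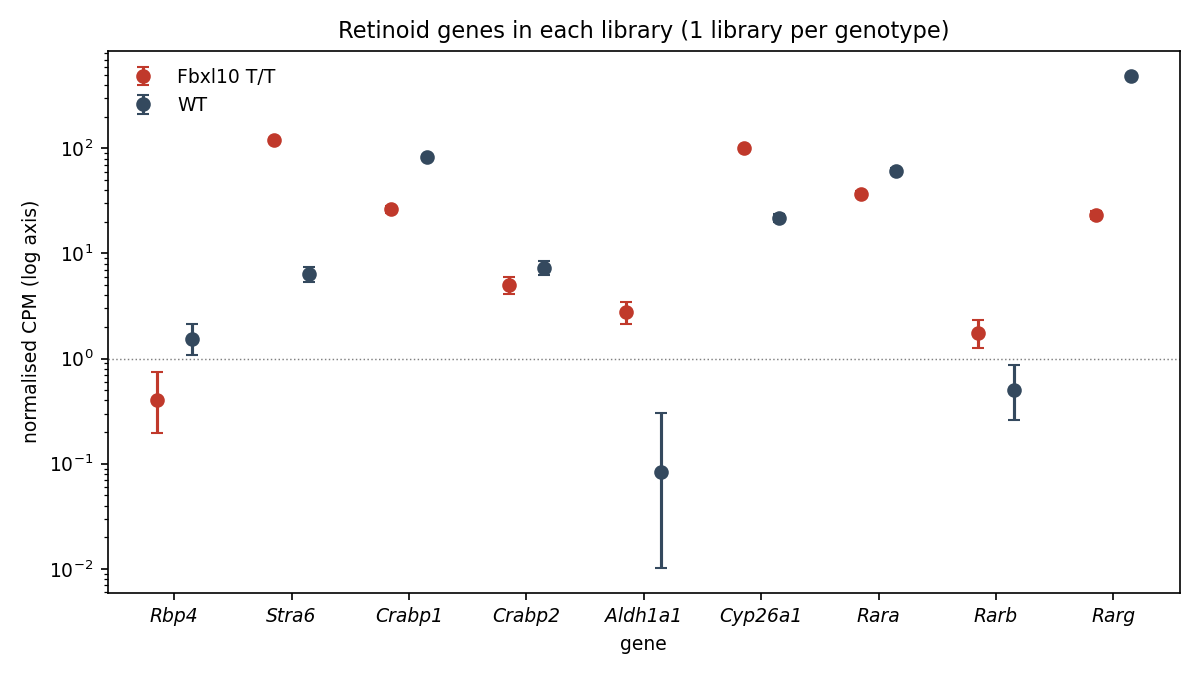
Normalised CPM (log axis) of each retinoid gene in the Fbxl10 T/T and WT libraries, 1 point per library, with exact Poisson 95% intervals for counting error. Stra6 and Cyp26a1 stand higher in Fbxl10 T/T and Rarg stands far lower, while Rbp4, Aldh1a1 and Rarb are near or under 1 CPM (dotted line) in at least 1 library.

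Stra6, the membrane receptor that takes up retinol from RBP4, had the largest ratio of the 9 genes on the log2(CPM + 0.5) scale, while Aldh1a1, with 2 reads in WT, had the larger plain fold. It was at 121 CPM (2988 reads) in Fbxl10 T/T and 6.36 CPM (152 reads) in WT. The fold was 19.0, with an interval of 16.2 to 22.5. Its log2 ratio of 4.15 ranked 14 from the top among the 13512 genes. The gene (ENSMUSG00000032327) is listed at chr9:57976895-58001762 in mm9. Its nearest listed neighbour, Ccdc33, was also higher, at 4.33 CPM in Fbxl10 T/T and 0.167 CPM in WT. The GENCODE M21 annotation, which is on a later build, has the Ccdc33 and Stra6 genes overlapping on opposite strands. The strand setting of the authors' counting is not given in the sources used here, so reads from such a pair could not be told apart where they overlap. Stra6 had the far higher level of the pair in both libraries. GENCODE M21 also has Gm16131 overlapping Stra6 on the same strand, and its part in the reads was not tested.

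Rbp4, which encodes the retinol carrier that STRA6 binds, was low throughout. It had 0.405 CPM (10 reads) in Fbxl10 T/T and 1.55 CPM (37 reads) in WT, a fold of 3.82 lower with an interval of 1.86 to 8.62. With 1 CPM as the pseudocount the ratio of Rbp4 was under 2-fold. The carrier and its receptor thus differed in opposite directions. Ttr, which encodes the partner of RBP4 in blood, was at 8.06 CPM in Fbxl10 T/T and 6.57 CPM in WT. Rbp4 (ENSMUSG00000024990, chr19:38191117-38199738 in mm9) lies on the same chromosome as Aldh1a1 and Cyp26a1, both of which were higher.

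The other carriers and uptake genes were divided as well, with 5 of 10 listed, 2 higher, 1 lower and 2 in between. Of all genes 14.8% were higher and 20.6% lower. Lrp2, which encodes the endocytic receptor megalin and is also a visceral endoderm marker, was 8.52-fold higher at 2103 CPM in Fbxl10 T/T against 247 CPM in WT. Scarb1, a lipoprotein and carotenoid receptor gene, was at 128 CPM in Fbxl10 T/T and 59.3 CPM in WT. Fabp5, whose fatty acid binding protein can also carry retinoic acid, was at 5.10 CPM in Fbxl10 T/T and 10.3 CPM in WT. Of the 10 listed visceral endoderm markers 6 were higher, 2 lower and 2 in between, with a summed level of 4977 CPM in Fbxl10 T/T and 2204 CPM in WT. The lower ones, Apoa1 and Apob, reached 1 CPM in WT alone. Afp and Apoa4, of the same list, were not listed. Of the 8 parietal endoderm markers 6 were higher, 1 lower and 1 in between, with a summed level of 24049 CPM in Fbxl10 T/T and 3577 CPM in WT.

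The cytosolic binding protein genes were both lower in Fbxl10 T/T, but only Crabp1 passed 2-fold. Crabp1 (ENSMUSG00000032291, chr9:54612614-54620916 in mm9) was at 26.4 CPM (652 reads) in Fbxl10 T/T and 82.0 CPM (1958 reads) in WT, 3.10-fold lower with an interval of 2.84 to 3.40. Its protein binds retinoic acid and is linked to its breakdown. Crabp2 (ENSMUSG00000004885, chr3:87752615-87757294 in mm9), whose protein delivers retinoic acid to the receptors, was at 4.98 CPM (123 reads) in Fbxl10 T/T and 7.33 CPM (175 reads) in WT. That is 1.47-fold lower, with an interval of 1.16 to 1.87. Per kilobase of exon, Crabp1 was 6.15 times the level of Crabp2 in Fbxl10 T/T and 13.0 times in WT.

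Among the enzymes that make retinoic acid from retinal, the gene of 1 was higher in Fbxl10 T/T and those of the other two were lower. Aldh1a1 (ENSMUSG00000053279, chr19:20676471-20717951 in mm9) was at 2.75 CPM (68 reads) in Fbxl10 T/T and 0.0837 CPM (2 reads) in WT. The fold was 32.9, and with 2 reads in WT its interval ran from 8.76 to 277. Mouse Aldh1a1 has a close paralogue, Aldh1a7, which was not listed, so reads shared between them make this value uncertain. In GENCODE M21 Aldh1a1 also overlaps C730002L08Rik and Gm6684 on the opposite strand, and their part in its reads was not tested. Aldh1a2, the main synthesis enzyme gene of the early mouse embryo, was at 0.851 CPM in Fbxl10 T/T and 4.86 CPM in WT, 5.71-fold lower with an interval of 3.57 to 9.57. Aldh1a3 was at 1.42 CPM in Fbxl10 T/T and 3.43 CPM in WT. Per kilobase of exon Aldh1a1 was at 1.15 CPM in Fbxl10 T/T and 0.0350 CPM in WT, and Aldh1a2 at 0.376 CPM in Fbxl10 T/T and 2.15 CPM in WT. The gene with the higher level per length was therefore Aldh1a1 in Fbxl10 T/T and Aldh1a2 in WT, and all of these levels were low.

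The step before, from retinol to retinal, showed smaller differences. Of 19 retinol and retinal oxidoreductase genes 10 were listed and 9 reached 1 CPM. Of these 9, 1 was higher, 1 lower and 7 in between, beside 14.8% higher and 20.6% lower of all genes. Their median log2 ratio was 0.27. Rdh10, a main retinol dehydrogenase gene of the mouse embryo, was at 43.1 CPM in Fbxl10 T/T and 22.0 CPM in WT. Rdh11 was at 64.4 CPM in Fbxl10 T/T and 31.3 CPM in WT, and Rdh14 at 7.74 CPM in Fbxl10 T/T and 3.64 CPM in WT. These 3 genes all lay close to a 2-fold difference, and on the log2(CPM + 0.5) scale Rdh11 alone was past it, which it was not after scaling both libraries to equal medians. Dhrs3, which encodes an enzyme that returns retinal to retinol, was at 1.66 CPM in Fbxl10 T/T and 3.01 CPM in WT. Dhrs4 was at 16.7 CPM in Fbxl10 T/T and 28.3 CPM in WT, and Rdh12 at 0.203 CPM in Fbxl10 T/T and 1.34 CPM in WT. Of 9 retinyl ester and carotenoid enzyme genes 2 were listed: Dgat1, at 22.6 CPM in Fbxl10 T/T and 22.8 CPM in WT, and the lipase gene Lipe, at 2.84 CPM in Fbxl10 T/T and 8.84 CPM in WT.

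Cyp26a1, which encodes the main retinoic acid clearance enzyme of the early embryo and is a known direct target of retinoic acid, was 4.62-fold higher in Fbxl10 T/T, with an interval of 4.20 to 5.09. It was at 101 CPM (2499 reads) in Fbxl10 T/T and 21.9 CPM (523 reads) in WT, and its log2 ratio was 2.18. Cyp26a1 (ENSMUSG00000024987, chr19:37772344-37776018 in mm9) had higher neighbours on both sides. Cyp26c1, its paralogue 4.39 kb away, was at 1.70 CPM (42 reads) in Fbxl10 T/T and 0.293 CPM (7 reads) in WT. Myof, the nearest listed gene on the other side but 198 kb away, was at 179 CPM in Fbxl10 T/T and 46.0 CPM in WT. The remaining family gene, Cyp26b1, was at 1.86 CPM in Fbxl10 T/T and 2.72 CPM in WT. Among the 7 listed of 9 other synthesis and clearance genes, 2 were higher, 3 lower and 2 in between. Of all genes 14.8% were higher and 20.6% lower. Beside those named above, the listed genes of this group were Cyp1b1, at 3.36 CPM in Fbxl10 T/T and 7.54 CPM in WT, Cyp2s1, at 23.4 CPM in Fbxl10 T/T and 18.5 CPM in WT, and Ugt2b34, at 2.03 CPM in Fbxl10 T/T and 0.251 CPM in WT. Cyp26c1 and Ugt2b34 reached 1 CPM in Fbxl10 T/T alone, and Aldh1a2 in WT alone.

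Cyp26a1 and Rarb were the members whose promoter window held a retinoic acid response element of the DR5 kind, and both were counted as higher. Members and motifs were chosen with earlier results of these data known, so this pairing is a description and not independent support. The search used direct repeats, on both strands, of any pair of 4 half-sites, which were the consensus AGGTCA, its variant AGTTCA, then the variant GGTTCA, and lastly GGGTCA, with 5 free bases between them (DR5), 2 (DR2) or 1 (DR1). It covered windows of 300 bases around RefSeq start sites of GRCm38.p6, which matched 8 of the 9 genes with 17 windows. Crabp2 had no window and was not searched. A DR5 stood in 32 of 32851 windows of all genes (0.0974%), and no window of the 8 genes held a DR2 or DR1, which stood in 0.268% and 0.222% of all windows. The 250 bases before each start site are shown 5′ to 3′ on the gene's strand because they carry the element, which is in capitals. The Rarb window is chr14:16575477-16575726 on the minus strand and the Cyp26a1 window chr19:37697558-37697807 on the plus strand, both in GRCm38.p6.
Rarb: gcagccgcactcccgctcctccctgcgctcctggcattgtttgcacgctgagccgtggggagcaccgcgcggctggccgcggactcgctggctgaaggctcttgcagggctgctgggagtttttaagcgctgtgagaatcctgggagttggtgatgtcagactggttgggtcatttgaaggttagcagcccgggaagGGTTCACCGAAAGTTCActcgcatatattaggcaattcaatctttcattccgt
Cyp26a1: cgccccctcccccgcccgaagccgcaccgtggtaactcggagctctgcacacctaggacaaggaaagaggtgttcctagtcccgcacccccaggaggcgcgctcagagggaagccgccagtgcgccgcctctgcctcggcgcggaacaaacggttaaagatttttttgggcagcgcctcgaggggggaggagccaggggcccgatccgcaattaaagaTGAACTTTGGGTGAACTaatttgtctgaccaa

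The Rarb element lies 53 to 37 bases before the start on the strand of the gene, and the Cyp26a1 element 32 to 16 bases before the start on the opposite strand. Read along the repeats they are these 17 bases.
Rarb element: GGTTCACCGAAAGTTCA
Cyp26a1 element: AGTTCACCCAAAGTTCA
They share 15 of 17 bases, and the substitutions from the Rarb to the Cyp26a1 element are G1A and G9C, counted from 1 at the 5′ end. The match of letters is a description and not evidence of binding. Of the 31 genes with a DR5 window 7 were listed, and these 7 include both members. Of the others, Cfap45 was at 4.17 CPM in Fbxl10 T/T and 1.76 CPM in WT, and Syndig1 at 0.162 CPM in Fbxl10 T/T and 3.56 CPM in WT. Blvrb, Hbb-y and Ppbp lay within 2-fold on the log2(CPM + 0.5) scale. The 7 genes thus held 3 higher and 1 lower, beside 14.8% and 20.6% of all genes, and 3 in between. The 3 higher genes include both members, so this count is not independent of them. Rarb reached 1 CPM in Fbxl10 T/T alone, and Syndig1 and Ppbp in WT alone. The windows of the 8 genes differed widely in CpG content. Among the genes that were higher in Fbxl10 T/T, Cyp26a1 held 26 CpG dinucleotides, Rarb 17, the windows of Stra6 between 5 and 10, and those of Aldh1a1 3 and 1. Among the genes that were lower, the Rbp4 windows held 40 and 5, the Crabp1 window 17 and the Rarg windows 12 and 10. The 4 windows of Rara held between 5 and 21, and the median over all windows was 7. CpG-rich windows thus stood at genes of both directions.

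Rarg, which encodes retinoic acid receptor gamma, was 21.0-fold lower in Fbxl10 T/T, with an interval of 19.3 to 22.9. It was at 23.1 CPM (571 reads) in Fbxl10 T/T and 486 CPM (11603 reads) in WT. Its log2 ratio of -4.36 was the smallest of the 9 genes and ranked 13 from the bottom among 13512. Rarg (ENSMUSG00000001288) is listed at chr15:102065371-102087950 in mm9. Its nearest listed neighbours were lower too, and Itgb7, an integrin gene 3.03 kb away, was at 0.689 CPM in Fbxl10 T/T and 9.76 CPM in WT. The 18 nearest listed neighbours of the 9 genes, on either side, held 4 higher, 2 lower and 12 in between. Of all genes 14.8% were higher and 20.6% lower. No listed gene overlapped a member in the table's own coordinates.

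Rara, which encodes the widely expressed receptor alpha, differed far less than Rarg. It was at 36.9 CPM (912 reads) in Fbxl10 T/T and 61.3 CPM (1464 reads) in WT, 1.66-fold lower with an interval of 1.53 to 1.80. Rara is listed at chr11:98789132-98836256 in mm9 (ENSMUSG00000037992). Rarb, whose promoter element is shown above and which is a known direct target of retinoic acid, was the receptor gene that was higher. It was at 1.74 CPM (43 reads) in Fbxl10 T/T and 0.502 CPM (12 reads) in WT, a fold of 3.47 with a wide interval of 1.80 to 7.22. Rarb (ENSMUSG00000017491, chr14:17263356-17651381 in mm9) ends 55 bases from Top2b, a topoisomerase gene at 20.4 CPM in Fbxl10 T/T and 13.6 CPM in WT. The 2 genes overlap on opposite strands in GENCODE M21, so part of the Rarb reads may belong to Top2b. This was not tested. With 1 CPM as the pseudocount, or after rescaling to a common upper quartile, the Rarb ratio stayed positive but under 2-fold.

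The receptor genes were compared with each other per kilobase of exon, using exon lengths of GENCODE M21. The 3 RAR genes summed to 16.0 CPM per kilobase in Fbxl10 T/T and 158 in WT, 9.88-fold lower in Fbxl10 T/T. Rarg made up 42.7% of that sum in Fbxl10 T/T and 90.8% in WT. Rara made up 54.1% in Fbxl10 T/T and 9.08% in WT, and Rarb 3.22% in Fbxl10 T/T and 0.0940% in WT. The level of Rarg per length was 0.79 times that of Rara in Fbxl10 T/T and 10.0 times in WT. The leading RAR transcript was thus Rara in Fbxl10 T/T and Rarg in WT, also when the longest coding transcript was taken as the length.

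**Figure D2:**
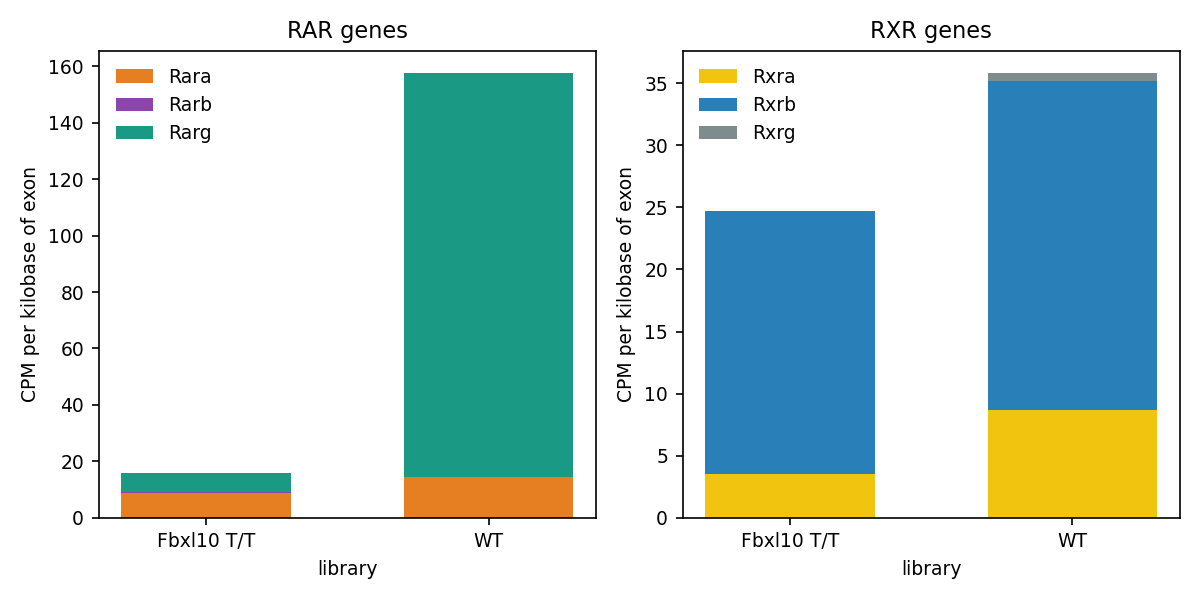
Level per length (CPM per kilobase of exon, stacked) of the RAR genes (left) and the RXR genes (right) in the Fbxl10 T/T and WT libraries, with separate axes. The RAR sum is 16.0 in Fbxl10 T/T and 158 in WT, where Rarg fills most of the bar, while the RXR sum is 24.7 in Fbxl10 T/T and 35.8 in WT and consists mostly of Rxrb in both.

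The partner receptor genes differed less than the RAR genes as a sum. The 3 RXR genes summed to 24.7 CPM per kilobase in Fbxl10 T/T and 35.8 in WT, and Rxrb made up 85.7% of this in Fbxl10 T/T and 74.1% in WT. Rxra was at 18.0 CPM in Fbxl10 T/T and 44.1 CPM in WT, 2.45-fold lower. Rxrb was at 61.2 CPM in Fbxl10 T/T and 76.7 CPM in WT, while Rxrg had 1 read in Fbxl10 T/T and 35 reads in WT, a fold of 36.2 lower with an interval of 6.08 to 1469. Ppard, a nuclear receptor gene whose protein also pairs with RXR, was at 23.7 CPM in Fbxl10 T/T and 38.3 CPM in WT. The sum per length of the RXR genes was above that of the RAR genes in Fbxl10 T/T and below it in WT.

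The corepressor and coactivator genes that act with these receptors mostly stayed within 2-fold. Of 21 genes 20 were listed, with 1 higher, 2 lower and 17 in between. Of all genes 14.8% were higher and 20.6% lower. The median log2 ratio of the 20 genes was -0.07, beside 0.02 over all genes. The acetyltransferase gene Kat2b was 7.37-fold lower, at 4.17 CPM in Fbxl10 T/T against 30.7 CPM in WT. Nsd1, a histone methyltransferase gene, was 4.98-fold lower, at 18.2 CPM in Fbxl10 T/T against 90.6 CPM in WT. Nrip1, which encodes a corepressor that is itself induced by retinoic acid, was 2.46-fold higher, at 25.9 CPM in Fbxl10 T/T against 10.6 CPM in WT. Ep300 was at 95.6 CPM in Fbxl10 T/T and 165 CPM in WT, Gps2 at 41.8 CPM in Fbxl10 T/T and 29.1 CPM in WT, and Lcor at 4.82 CPM in Fbxl10 T/T and 2.22 CPM in WT.

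Genes known to respond to retinoic acid did not move in 1 direction. Of 46 such genes 38 were listed, and 10 were higher, 15 lower and 13 in between, beside 14.8% and 20.6% of all genes. Stra8, Cdx1, Foxa1, Ret and Tlx2, all counted as lower, reached 1 CPM in WT alone. The median log2 ratio was -0.57 and its interval, from order statistics over genes, ran from -1.15 to 0.70. That interval describes the genes of a chosen list and covers neither counting error nor differences between cultures. With a minimum of 5 CPM the median turned to 0.26. The genes which this minimum removed were Hoxa3, Nr2f1, Dhrs3, Ret, Tfap2a, Tlx2 and Cyp26b1, and all of them had negative log2 ratios. The higher end held Col4a1, at 18445 CPM in Fbxl10 T/T and 1862 CPM in WT, and Lamb1, at 7808 CPM in Fbxl10 T/T and 787 CPM in WT, both basement membrane genes that are also endoderm markers. The lower end held Stra8, the meiotic entry gene, at 0.608 CPM in Fbxl10 T/T and 41.5 CPM in WT. Cdx1, a homeobox gene of the primitive streak, was at 0.851 CPM in Fbxl10 T/T and 23.1 CPM in WT, and the trophoblast factor gene Tfap2c at 4.01 CPM in Fbxl10 T/T and 76.2 CPM in WT. Without the genes that stand in another of these lists or among the markers, 32 genes remained, with 7 higher and 14 lower and a median of -0.75. The 9 retinoid genes are not in this list, though several of them are known targets themselves.

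**Figure D3:**
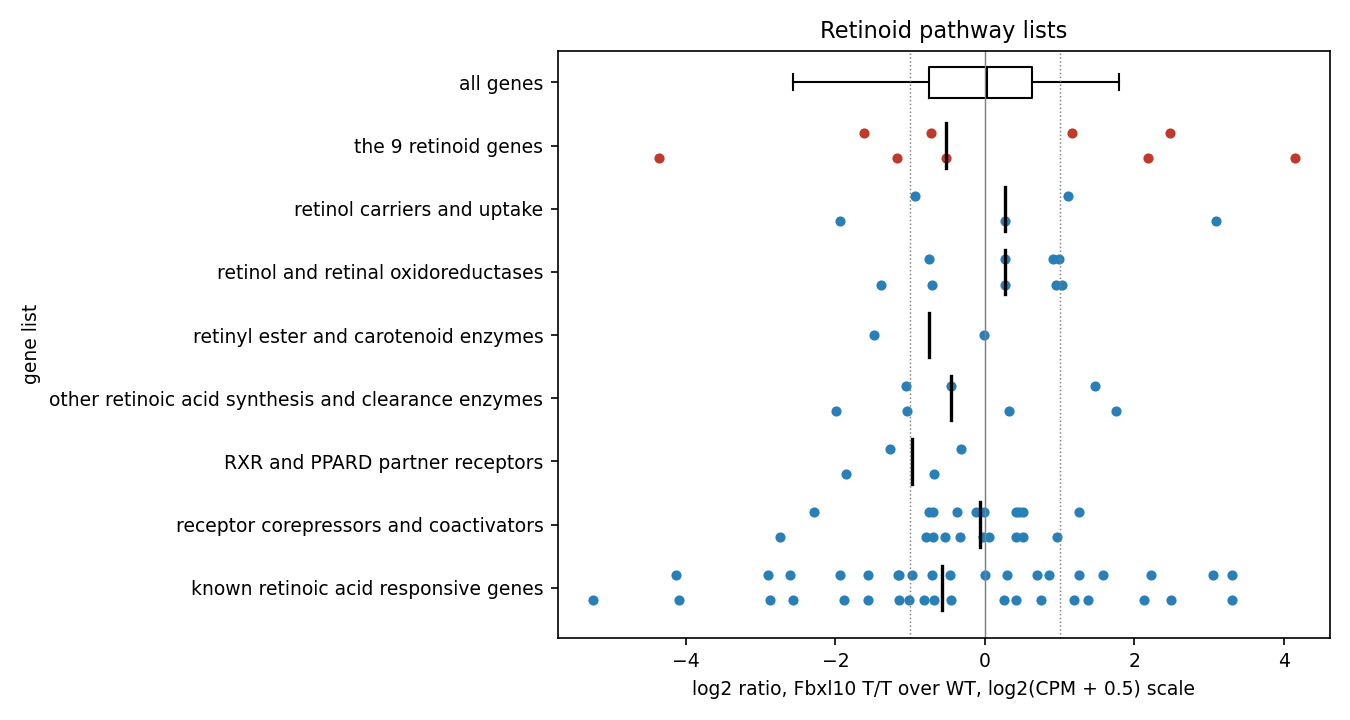
Log2 ratio of Fbxl10 T/T over WT on the log2(CPM + 0.5) scale, 1 point per gene, for the 9 retinoid genes (top row of points) and 7 lists of other pathway genes, with black bars at list medians and dotted lines at 2-fold. The box for all genes spans the quartiles with whiskers to the 5th and 95th percentiles; the points of Stra6 at 4.15 and Rarg at -4.36 lie outside the whiskers.

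Within each library, the order of the 9 genes per kilobase of exon differed. In Fbxl10 T/T it was Cyp26a1 (56.5 CPM per kilobase), Stra6 (33.2), Crabp1 (32.9), Rara (8.63), Rarg (6.81), Crabp2 (5.35), Aldh1a1 (1.15), Rarb (0.514) and Rbp4 (0.329). The counting intervals of Stra6 and Crabp1 overlapped there, as did those of Rarg and Crabp2 and those of Rarb and Rbp4. In WT it was Rarg (143 CPM per kilobase), Crabp1 (102), Rara (14.3), Cyp26a1 (12.2), Crabp2 (7.87), Stra6 (1.75), Rbp4 (1.26), Rarb (0.148) and Aldh1a1 (0.0350). Here the intervals of Stra6 and Rbp4 overlapped, as did those of Rarb and Aldh1a1. Cyp26a1 thus had the top level in Fbxl10 T/T and ranked 4 in WT, and Rarg ranked 5 in Fbxl10 T/T and had the top level in WT.

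**Figure D4:**
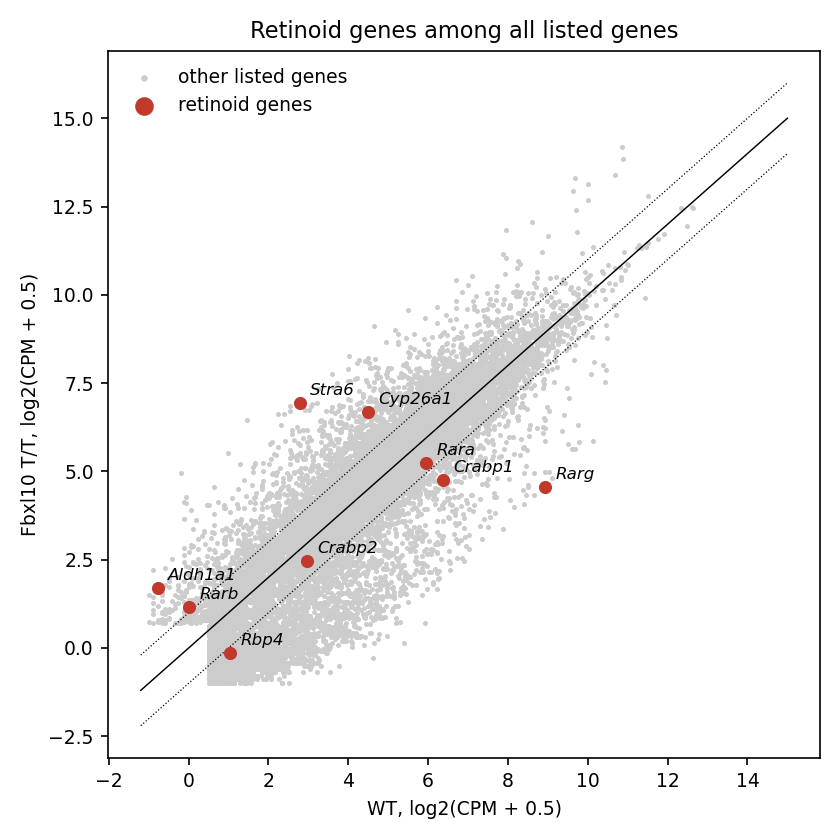
Level of each listed gene in Fbxl10 T/T (vertical) against WT (horizontal), both as log2(CPM + 0.5), with the retinoid genes in red, a line of equal levels and dotted lines at 2-fold. Stra6 lies at the upper edge of the cloud and Rarg at the lower edge, and Rara and Crabp2 lie between the dotted lines.

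The genes nearest to Stra6 in the levels of both libraries were Lyn, Efna1 and Klrg2, at distances of 0.22, 0.26 and 0.29 on the log2 scale. Those nearest to Rarg were Sept1, Laptm5 and Cth, at distances of 0.29, 0.36 and 0.41. A likeness over 2 libraries describes only a similar level in each.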

How the data were processed

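Polyadenylated RNA of 1 Fbxl10 T/T and 1 WT library was used. The deposited table gives a normalised signal per gene and library and the authors' log2 ratio of WT over T/T and average log2 CPM. Per the submitters' processing notes, edgeR, HTSeq 0.5.3p9, TopHat 1.4.1 and the mm9 build were used. What each did, and the annotation and strandedness of counting, is not given in the sources used here. Dividing by 1 step per library turned 100% of the values into whole read counts, to within 0.01 reads, and 3 reads corresponded to 0.122 CPM in T/T and 0.126 CPM in WT. The table has 24706 rows for 13620 genes, and repeated rows were used once.

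Ratios are log2 of (T/T CPM + 0.5) over (WT CPM + 0.5), and folds use CPM without the pseudocount. Lengths come from protein-coding transcripts of the GENCODE M21 basic set. Named pathway genes are all measured genes of lists with up to 5, and otherwise the 3 largest and 3 smallest ratios, with further genes named for their role after their values were seen. A few genes under this rule are not reported here. Members, lists and motifs were chosen with earlier results of these data known. A two-sided exact binomial test on the recovered reads, added to compare the 2 libraries only, called 11372 genes at a Benjamini-Hochberg adjusted p of 0.05. Ratios, intervals and read recovery were tested on simulated reads. Scripts ran in Python 3.11.15 with scipy 1.17.1, pandas 2.3.3, numpy 2.4.6 and matplotlib 3.10.9.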

Additional observations from a re-analysis of the deposited data

How the results depend on the processing

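No paired analysis was possible because each genotype had a single library, which also means that none could be left out. The ratios of the 9 genes were recomputed under pseudocounts of 0.1 and 1 CPM, other minimums and rescaling. Of the 51 values, 40 stayed within their counting intervals. All 51 kept their sign, but a pseudocount or a minimum cannot change a sign, so only rescaling could have done so. The 43 recomputed list medians stayed within their intervals. For lists of up to 5 genes that interval is the full range of the genes, which a median can hardly leave. The median of the retinoic acid responsive genes changed sign, to 0.26, with a minimum of 5 CPM. A pseudocount of 0.1 CPM moved the log2 ratio of Rbp4 to -1.71 and that of Aldh1a1 to 3.96, and 1 CPM moved Aldh1a1 to 1.79. Rescaling to a common median lowers the Fbxl10 T/T values by 0.13 on the log2 scale and gave Crabp1 -1.75, Rara -0.85 and Rarg -4.49. With the upper quartile (0.24 on the log2 scale) the ratios were 3.91 for Stra6, 1.94 for Cyp26a1, -1.85 for Crabp1, -0.96 for Rara and -4.60 for Rarg. A minimum of 5 CPM dropped Rbp4, Aldh1a1 and Rarb and left 2 retinoid genes higher and 2 lower. Among all genes it left 1828 higher and 1737 lower. A 4-fold threshold left 3 retinoid genes higher and 1 lower, and among all genes 519 higher and 1229 lower. A 1.5-fold threshold gave 4 retinoid genes higher and 4 lower, and among all genes 3582 higher and 3876 lower. Adding the binomial test, which covers counting error only, removed no call among the retinoid genes or among all genes, so it set no further limit. The share of Rarg in the RAR sum was 40.6% in Fbxl10 T/T and 90.0% in WT with the longest transcript as the length. Depth limits the ratios of low genes, among them Aldh1a1, Rbp4 and Rarb, with 2, 10 and 12 reads in the lower library.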
